A study of Mus musculus with 107 samples.

Results

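The genes described here encode the water channel, potassium channels, gap junction connexins and anchoring or adhesion proteins with which astrocytes hold their endfeet on blood vessels and join into a syncytium. They are Aqp4, Kcnj10, Kcnj16, Gja1, Gjb2, Gjb6, Dtna, Mlc1 and Hepacam, 9 of the 27179 genes counted in every library. They were chosen by name, with each symbol matched to a single mouse Entrez gene, and all 9 were found. The rule uses names and no measured value.

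Astrocytes clear potassium and water released by active neurons and pass both along a network of coupled cells to the vessels. Aqp4 is the water channel of the endfoot membrane, where it is held by the dystrophin complex that includes alpha-dystrobrevin, the product of Dtna. Kcnj10 and Kcnj16 encode the inward rectifiers Kir4.1 and Kir5.1, which form mixed channels, and Kir5.1 passes current mainly as a partner of Kir4.1. Gja1, Gjb2 and Gjb6 encode connexin 43, connexin 26 and connexin 30. Mlc1 encodes a membrane protein at astrocyte junctions, and Hepacam encodes GlialCAM, the adhesion molecule that brings it there. Connexin 26 is also a protein of meningeal and epithelial cells.

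RiboTag mice and cells carry an HA-tagged ribosomal protein Rpl22, so that RNA bound to ribosomes of the tagged cells can be pulled down from whole tissue and sequenced. The study followed neural progenitor cells (NPC) made from embryonic stem cells through differentiation in culture and after grafting into the mouse spinal cord, beside the astrocytes of the host cord. The 107 libraries fall into 23 groups of 4 to 9. The study reports independent biological replicates for its in vitro work in general. The labels do not say whether the replicate cultures of these libraries were grown separately. For cultures, p-values therefore measure the spread between these samples, which may be partly technical.

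All cultured and grafted cells came from a single C57BL/6 line of mouse embryonic stem cells (ESC, n = 4) in which a Sox2-cre allele had switched on the tagged Rpl22. NPC induced from them were kept in EGF and FGF at 100 ng/ml. The main derivation was sampled with 4 libraries at each of passage 5 (NPC P5), passage 15 (NPC P15) and passage 30 (NPC P30). Further derivations were D2 (6 libraries) and D3 (4 libraries), both at passage 15. Differentiation ran for 4 days with EGF and FGF at 1 ng/ml. It was spontaneous (SPONT), or with CNTF at 100 ng/ml, IGF-1 at 100 ng/ml (IGF), fetal bovine serum at 1, 5, 10 or 20% (FBS1, FBS5, FBS10, FBS20), or CNTF with 5% serum (CNTF_FBS5), with n = 4 in each group. NPC were also passed through a pipette in medium (NPC_media), in the hydrogel DCH used for grafting (NPC_DCH), or in DCH after 4 hours (NPC_DCH_4h), with n = 5 each. Grafts of NPC in young adult mice were recovered at 14 days from uninjured cord (GRAFT_UNINJ_14d), from a severe crush injury of the thoracic cord grafted 2 days after injury (GRAFT_SCI_14d) and from a double crush injury (GRAFT_DSCI_14d), and at 5 days from crush injury (GRAFT_SCI_5d), with n = 5 each. The series text counts these days from injury, and the study counts them in some places from injury and in others from grafting. Host astrocyte RNA came from mice in which a Gfap-Cre switched on the tag, without injury (HOST, n = 9) and 14 days after crush (HOST_SCI_14d, n = 5). Gfap-Cre also acts in other cells that pass through a Gfap-positive stage, and a graft library holds every cell type that the NPC formed.

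Library totals ran from 30473157 to 147764968 counts in 96 libraries and from 12286240 to 18085106 in the other 11, which are all of D2 and GRAFT_SCI_5d. The labels describe paired reads throughout, but the headers of these 11 name a single read set where the others name a pair, and their low counts are not mostly even as in the others, so they are taken here as single-read. Levels are given as CPM, the count scaled by its library total. At these depths 3 counts corresponded to 0.0203 to 0.244 CPM, for counting error only. Differences are log2 fold changes from edgeR's quasi-likelihood test with TMM scaling, with the standard error (SE) and a p-value adjusted over all genes tested, and a gene was called at an adjusted p below 0.01. The 6 astrocyte markers (Gfap, Aldh1l1, Aldoc, Slc1a3, S100b, Sox9) were present in every host and graft group. Their summed level was 30088 to 36779 CPM in HOST, 24859 to 36237 in HOST_SCI_14d and 5986 to 21286 over the grafts at 14 days. A sum need not hold for each marker. In the paper's FPKM values Gfap was higher in host astrocytes after injury, while Aldoc and Slc1a3 were lower. Markers of oligodendrocytes were also high in these libraries, at 5192 to 11264 CPM in HOST, 21452 to 36410 in HOST_SCI_14d and 3460 to 25701 in the grafts at 14 days, and neuronal markers reached 5624 CPM in a graft in uninjured cord. The microglia and macrophage markers summed to 10.3 to 23.2 CPM in HOST and to 152 to 7950 CPM in the grafts at 14 days. Endothelial markers summed to 20.8 to 520 CPM in those grafts. The paper reports minimal RNA, and no transcripts of the HA tag, from the pulldown of injured cord without a graft. It found no statistical difference in tag transcripts between grafts at 5 days and NPC before grafting. Whether these graft libraries also hold RNA of untagged host cells was not tested here, so graft levels may not come from grafted cells alone. RNA of 4 Y-linked genes was present in 7 of 9 HOST libraries, at 64.3 to 101.9 CPM, and stayed below 1 CPM in the other libraries. In bulk samples fewer cells of a type and less RNA per cell cannot be told apart.

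The connexin genes differed in how they moved, so their upstream sequences are shown here, read from RefSeq on GRCm38.p6 as the 250 bases before the annotated start, 5′ to 3′ on the coding strand. The Gja1 window is chr10:56377050-56377299 on the plus strand. Gjb2 and Gjb6 are neighbours on the minus strand of chromosome 14 with 18598 bases between them, and their windows are chr14:57104703-57104952 and chr14:57133612-57133861. Capitals mark matches, on either strand, to any of 5 short motifs.
Gja1: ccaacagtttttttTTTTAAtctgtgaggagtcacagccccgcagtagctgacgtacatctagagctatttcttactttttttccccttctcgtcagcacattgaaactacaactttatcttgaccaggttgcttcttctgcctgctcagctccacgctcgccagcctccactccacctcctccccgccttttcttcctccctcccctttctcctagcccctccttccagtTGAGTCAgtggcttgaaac
Gjb2: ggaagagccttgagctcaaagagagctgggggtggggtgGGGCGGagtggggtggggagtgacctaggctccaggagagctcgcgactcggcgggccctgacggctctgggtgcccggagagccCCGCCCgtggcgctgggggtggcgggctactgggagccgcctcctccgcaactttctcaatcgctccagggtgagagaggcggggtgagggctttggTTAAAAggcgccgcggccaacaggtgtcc
Gjb6: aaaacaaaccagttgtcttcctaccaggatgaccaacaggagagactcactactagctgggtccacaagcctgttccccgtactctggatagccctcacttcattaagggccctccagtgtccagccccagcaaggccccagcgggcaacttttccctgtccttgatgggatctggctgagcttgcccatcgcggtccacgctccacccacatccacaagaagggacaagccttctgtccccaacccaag
The Gja1 window held an AP-1 match that begins 19 bases before the start and a TTAAAA match on the opposite strand. The Gjb2 window had 69.2% G and C, with a pair of GC boxes and TTAAAA beginning 29 bases before the start. The Gjb6 window, with 56.8% G and C, held none of the 5 motifs. The GC box was searched as GGGCGG and was held by 32.7% of 32851 windows of the same length. The TATA box, searched as TATAAA, was in 12.4% of them. The AP-1 motif, searched as TGANTCA, was in 6.75% of windows. The STAT motif, searched as TTCNNNGAA, was in 7.02% of windows. The letters TTAAAA, which overlap none of the others here, were in 17.7% of windows. These matches describe the letters only.

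The other genes lie apart on GRCm38. Kcnj10 is on chromosome 1 (172341210 to 172374085, plus strand), Kcnj16 on chromosome 11 (110968033 to 111027968, plus) and Gja1 on chromosome 10 (56377300 to 56390419, plus). Hepacam is on chromosome 9 (37367356 to 37386572, plus), Mlc1 on chromosome 15 (88955884 to 88982693, minus), and Aqp4 and Dtna both on chromosome 18. Gjb2 spans 57098602 to 57104702 and Gjb6 57123301 to 57133611 of chromosome 14. All 9 are protein coding. Mlc1 is the only member whose span overlaps another counted gene, Gm8702.

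The levels of the 9 genes followed no common course (plot of levels in every library). Of the 9, 7 had their highest group mean in uninjured host astrocytes, Gjb2 in grafts in crushed cord at 14 days and Mlc1 in cultures with CNTF and 5% serum. The ratio of the highest to the lowest group mean was 3809 for Aqp4, 910 for Kcnj10, 29.1 for Dtna and 30.95 for Gja1. It is not given for Gjb2 and Gjb6, whose lowest groups held libraries with 3 counts or fewer. When groups were ordered by mean, 12 of the 22 neighbouring pairs had overlapping libraries for Kcnj10 and for Hepacam, and 15 to 19 for the others, so most neighbours in these orders were not separated by their spread. For Mlc1 the top pair was separate, with 1815 to 1956 CPM in CNTF_FBS5 and 1626 to 1799 CPM in HOST.

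**Figure D1:**
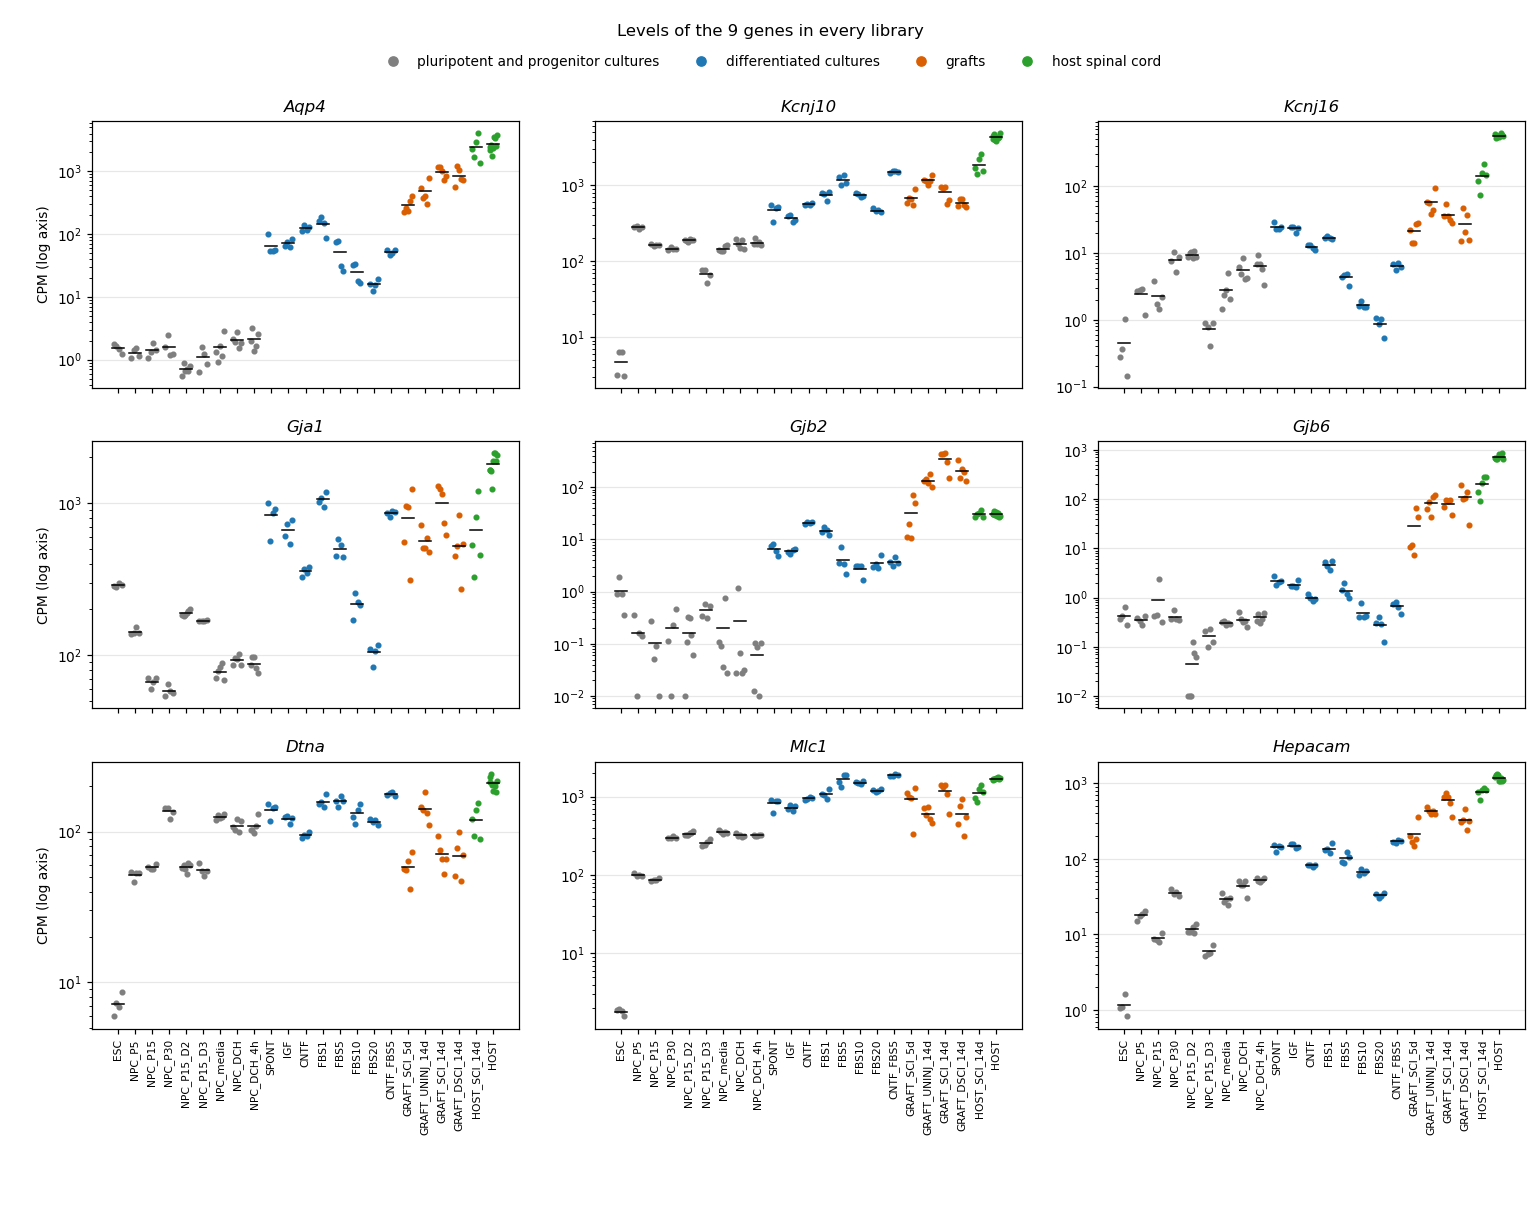
Each panel plots CPM on a log axis for 1 gene, with a point for every library and a bar at the group mean, and groups along the horizontal axis (libraries at 0 are drawn at 0.01). Aqp4 stays at or below 3.21 CPM in all stem and progenitor groups and lies between 1339 and 4063 CPM in host astrocytes, while Gjb2 is highest in the orange graft points, up to 445 CPM.

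On a per-length scale, CPM per kilobase of exon, the order of the genes differed between sources. In HOST, Kcnj10 led with 797, followed by Mlc1 with 606, Aqp4 with 436, Hepacam with 352, Gjb6 with 270, Gja1 with 175.96 and Kcnj16 with 143, while Gjb2 stood at 12.8 and Dtna at 12.4. In SPONT cultures Mlc1 led with 292 and Gjb6 came last with 0.814. In GRAFT_SCI_14d Mlc1 had 414 and Gjb2 had 147, close to the 149 of Kcnj10.

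Embryonic stem cells already made Gja1 and little of the rest. Gja1 ranged from 282 to 296 CPM in ESC and from 59.8 to 71.2 in NPC P15. It was the only member called lower in that comparison, and fell by 2.19 on the log2 scale (SE 0.06, adjusted p = 8.3e-11). Mlc1 rose from a mean of 1.81 to 86.5 CPM (log2 fold change 5.49, SE 0.11), and Kcnj10, from 4.74 to 164 CPM (5.04, SE 0.24), and Dtna (2.92, SE 0.13) and Hepacam (2.85, SE 0.31) rose too. In all, 4 rose and 1 fell, beside 67.2% of 15350 genes called, 32.2% higher and 34.9% lower. Aqp4 stayed at 1.06 to 1.87 CPM in NPC P15, and Gjb2 had 22, 4, 6 and 0 counts in the 4 libraries. Gjb2 lay below every ESC library there without being called (adjusted p = 0.016), and was called lower by DESeq2 (adjusted p = 0.0027), with all 23 groups in 1 fit (adjusted p = 2.8e-05) and without NPC P15 replicate 1 (adjusted p = 0.0085).

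Among progenitors several members differed between passages and between derivations, the latter at a share near that of all genes. From P5 to P30, Mlc1 rose from 97.05 to 104.9 CPM at P5 to 293 to 314 CPM at P30 (1.57, SE 0.05, adjusted p = 1.1e-15). At P15 Mlc1 stood at 82.7 to 91.6 CPM, below every P5 library. Kcnj16 (1.70, SE 0.30), Dtna (1.38, SE 0.07) and Hepacam (0.98, SE 0.11) rose as well. Hepacam too was lower at P15, with 8.03 to 10.4 CPM, than in any P5 library (15.0 to 20.4 CPM). Kcnj10 fell by 0.96 (SE 0.05) and Gja1 by 1.32 (SE 0.06), so 6 of 9 were called beside 35.5% of 14577 genes, 17.5% higher and 18.1% lower. Derivation D3 against the main derivation at P15 gave 2 higher members, Gja1 (1.37, SE 0.07) and Mlc1 (1.62, SE 0.08), and 3 lower, Kcnj10, Kcnj16 and Hepacam, beside 48% of 14370 genes called, 23.6% higher and 24.5% lower. Leaving out any library left 3 or 4 of these 5 calls, and 3 without replicate 1 of the main derivation or replicate 1, 2 or 3 of D3.

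Lowering EGF and FGF for 4 days raised most of the set. In SPONT cultures against NPC P15, 8 of 9 rose and none fell, beside 57.2% of 14852 genes called, 29.8% higher and 27.4% lower. The median log2 fold change of the members was 3.55, and that of all genes 0.08. Aqp4 went from 1.06, 1.34, 1.87 and 1.44 CPM in the NPC libraries to 99.3, 54.0, 54.7 and 55.3 CPM. The SPONT libraries thus all lay far above the NPC, with replicate 1 apart from the other 3, and the log2 fold change was 5.66 (SE 0.27, adjusted p = 1.4e-08).

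Of the coupling genes, Gja1 and Gjb2 were called higher in the same comparison and Gjb6 was not. Gja1 went from 59.8 to 71.2 CPM to 562 to 995 CPM (3.75, SE 0.16, adjusted p = 6.1e-09), without overlap. Gjb2 reached 7.53, 8.15, 6.12 and 4.83 CPM and was called (adjusted p = 1e-05), though its fitted fold is not given because it rests on the few NPC counts above. Gjb6 reached 2.68, 1.79, 2.05 and 2.18 CPM, but NPC P15 replicate 3 held 2.34 CPM where the others held 0.315 to 0.439. Its groups overlapped and it was not called (1.43, SE 0.63, adjusted p = 0.065). Without that library Gjb6 was called higher (2.58, adjusted p = 0.00023), as it was with all 23 groups in 1 fit (1.44, adjusted p = 0.0019) and against NPC P5 (2.75, adjusted p = 4.7e-05), NPC P30 (2.59, adjusted p = 0.0001) or D3 (3.77, adjusted p = 2.3e-07) in place of NPC P15.

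The adhesion and Kir genes rose too. Hepacam went from a mean of 8.92 to 142 CPM (4.12, SE 0.11), Mlc1 from 86.5 to 818 CPM (3.37, SE 0.11), Kcnj16 from 2.29 to 24.7 CPM (3.55, SE 0.29) and Kcnj10 from 164 to 477 CPM (1.66, SE 0.13). Dtna changed least among the called, from 58.0 to 140 CPM (1.40, SE 0.08). Against NPC P30, which held 136 CPM of Dtna, it was not called (0.20, adjusted p = 0.072). Of the related genes, 7 of 10 measured potassium channels and pumps rose, among them Kcnk2 (4.42) and Atp1b2 (2.90), while Slc12a2 fell by 1.53. Gpr37l1, an astrocyte receptor that binds the GlialCAM complex, rose from 2.21 to 313 CPM (7.26, SE 0.27). In the dystrophin complex 5 of 14 rose and 3 fell. Astrocyte markers went from 1483 to 1493 CPM in NPC P15 to 11652 to 15217 CPM in SPONT, those of oligodendrocyte progenitors from 254 to 309 to 1530 to 2728, and those of oligodendrocytes from 6.46 to 9.34 to 240.4 to 1224. Their part in these changes was not tested.

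CNTF, a cytokine that signals through STAT3, moved the members in both directions against SPONT. Gjb2 and Aqp4 rose, and Gja1, Gjb6, Kcnj16, Hepacam and Dtna fell, so 7 of 9 were called beside 19.9% of 14879 genes, 10.8% higher and 9.15% lower. Gjb2 had 19.7, 21.7, 20.6 and 21.5 CPM with CNTF (1.66, SE 0.16, adjusted p = 2.4e-05) and did not overlap SPONT. Gja1 had 325, 367, 347.5 and 381 CPM, below the 562 to 995 of SPONT (log2 fold change -1.20, SE 0.14, adjusted p = 9.9e-05). Thus the connexin 43 gene was lower and the connexin 26 gene higher in every CNTF library. Aqp4 rose from a mean of 65.8 to 125 CPM (0.94, SE 0.19), Gjb6 fell by 1.13 (SE 0.19) from a level of 2.18 CPM, Kcnj16 by 0.99 (SE 0.11), Hepacam by 0.77 (SE 0.07) and Dtna by 0.54 (SE 0.08). Kcnj10 (0.27, adjusted p = 0.12) and Mlc1 (0.24, adjusted p = 0.091) did not pass the test. The 6 astrocyte markers summed to 11652 to 15217 CPM in SPONT and 26090 to 27385 CPM with CNTF, and those of oligodendrocyte progenitors to 1530 to 2728 and 724 to 831 CPM. In the paper's FPKM values Gfap was higher with CNTF than in SPONT, while Aldoc, Slc1a3 and S100b were lower. The part of either cell type in these changes was not tested. Aqp4 lost its call without SPONT replicate 3 or 4 or CNTF replicate 2 or 4 (adjusted p = 0.011 to 0.013), and with all 23 groups in 1 fit Aqp4 (adjusted p = 0.02), Kcnj16 (adjusted p = 0.014) and Gjb6 (adjusted p = 0.059) were not called. Of the related genes Kcnj8, the Kir6.1 gene, rose from 3.03 to 36.9 CPM (3.62, SE 0.16).

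IGF-1 gave no call among the 9, beside 6.55% of 14941 genes called by edgeR, 2.8% higher and 3.75% lower. DESeq2 called none of the 9 either. A single member, Kcnj10, had an unadjusted p below 0.05, and the 95% intervals of the log2 fold changes ran from -0.59 to 0.55 over the 9 genes. Without SPONT replicate 2, which was the lowest SPONT library for 7 of the 9 genes, 4 members were called lower.

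Serum moved the genes along different courses. At 1% serum against SPONT, 4 of 9 rose (Aqp4, Kcnj10, Gjb2 and Gjb6) and Kcnj16 fell, beside 8.78% of 14938 genes called, 5.63% higher and 3.15% lower. Gjb2 had 13.6, 17.7, 15.4 and 12.4 CPM (1.17, SE 0.18, adjusted p = 0.0017) and Gjb6 5.16, 4.38, 3.60 and 5.42 CPM (1.11, SE 0.17, adjusted p = 0.0016), each above every SPONT library. Aqp4 had 160, 185, 150 and 86.02 CPM (1.17, SE 0.25, adjusted p = 0.0092) and overlapped SPONT replicate 1. These are calls near the threshold, and leaving out single libraries left 2 to 5 of them, 2 without SPONT replicate 3 or 4 or FBS1 replicate 1, 2 or 3, and 3 without FBS1 replicate 4.

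From 1 to 5% serum, Kcnj10 and Mlc1 rose while Aqp4, Kcnj16 and all 3 connexin genes fell, beside 31.1% of 15226 genes called, 17.4% higher and 13.7% lower. Kcnj10 went from 629 to 810 CPM to 1016 to 1359 CPM (0.66, SE 0.11, adjusted p = 0.00068). Its partner Kcnj16 went the other way, from a mean of 16.9 to 4.29 CPM (-1.99, SE 0.13, adjusted p = 2.6e-06). The Kcnj10 to Kcnj16 ratio per length had a median of 32.7 in FBS1, 209 in FBS5 and 359 in FBS20, where it was 14.7 in SPONT and 5.35 in HOST. Gja1 fell by 1.08 (SE 0.10), Gjb2 by 1.87 (SE 0.30) and Gjb6 by 1.75 (SE 0.22). Aqp4 fell by 1.49 (SE 0.37, adjusted p = 0.0078), a call that was lost without FBS1 replicate 1, 2 or 3 or FBS5 replicate 3 or 4 (adjusted p = 0.015 to 0.023).

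From 5 to 20% serum 8 of 9 fell and none rose, beside 26.6% of 15339 genes called, 12.9% higher and 13.7% lower. Gja1 went from 442 to 578 CPM to 83.3 to 116 CPM (-2.30, SE 0.12, adjusted p = 1.6e-06). Hepacam fell by 1.67 (SE 0.10), Kcnj10 by 1.39 (SE 0.09) and Mlc1 by 0.51 (SE 0.11). Gjb2 was not called (-0.22, SE 0.33, adjusted p = 0.62). Mlc1 thus still stood at 1129 to 1248 CPM in 20% serum, above every SPONT library, while Aqp4 had come down to 12.5 to 19.2 CPM. The 6 astrocyte markers summed to 21924 to 26193 CPM in FBS1, 15400 to 22280 in FBS5 and 5701 to 6313 in FBS20. Those of oligodendrocyte progenitors summed to 1338 to 2233, 285 to 1250 and 174.2 to 240.8 CPM in the same order. Fibroblast and pericyte markers went the other way, with 13.7 to 66.9, 133.2 to 430 and 418 to 529 CPM. So did the summed meningeal and epithelial list, which names cells that also make connexin 26, with 5.14 to 24.5, 226 to 386 and 404 to 902 CPM. Only Ogn of that list reached a mean of 1 CPM in these cultures, and Slc47a1, Krt5 and Krt14 stayed below it. Their part in these changes was not tested.

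**Figure D2:**
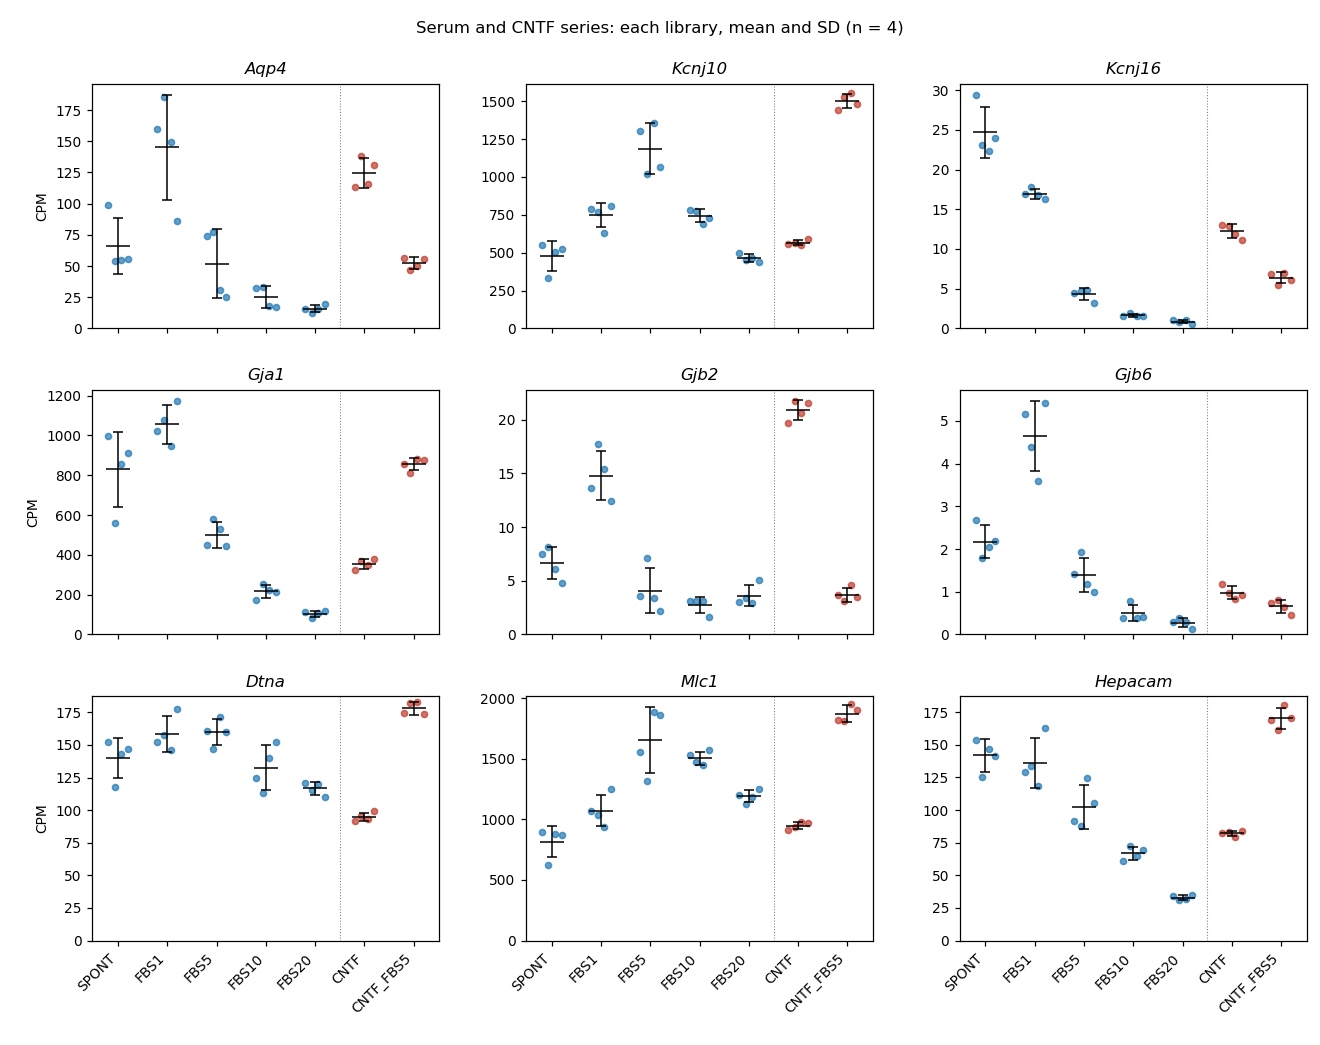
CPM of the 9 genes in cultures differentiated with serum or CNTF, with a point for each library and the mean and SD of 4 libraries. Kcnj10 has its highest serum mean at 5% (1186 CPM) and Aqp4 at 1% (145 CPM), and Gja1 falls from 1055 CPM at 1% to 104.4 CPM at 20% serum.

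CNTF had different effects with and without 5% serum. Added to 5% serum it raised Gja1, from 442 to 578 CPM to 813 to 880 CPM (0.70, SE 0.09, adjusted p = 0.00028), and Hepacam (0.66, SE 0.09), and lowered Gjb6 (-1.13, SE 0.27, adjusted p = 0.0082), beside 23.3% of 15272 genes called, 11.3% higher and 12.0% lower. The Gjb6 call, at levels near 1 CPM, was lost on leaving out any library but FBS5 replicate 4 (adjusted p = 0.013 to 0.027) and with all 23 groups in 1 fit (adjusted p = 0.13). Gja1 and Hepacam had fallen with CNTF alone. The difference between both CNTF effects was called for 5 of 9 genes, beside 22.9% of 15726, 10.3% higher and 12.6% lower. It was 1.90 for Gja1 (SE 0.18, adjusted p = 6.8e-07), 1.42 for Hepacam (SE 0.12), 1.48 for Kcnj16 (SE 0.17), 0.61 for Dtna (SE 0.09) and -1.89 for Gjb2 (SE 0.36, adjusted p = 0.00083). Gjb2, at 19.7 to 21.7 CPM with CNTF alone, stood at 3.07 to 4.59 CPM with CNTF and serum, within the 2.17 to 7.10 CPM of serum alone. Seen from the other side, 5% serum on top of CNTF called 8 of 9, beside 72.8% of 15203 genes, 36.1% higher and 36.8% lower. SPONT and FBS5 serve as controls in several of these comparisons.

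Handling before grafting gave a single call. Between NPC passed through a pipette in DCH and in medium, Hepacam was the 1 of 8 genes called (0.60, SE 0.14, adjusted p = 0.0074), beside 4.32% of 13860 genes, 1.91% higher and 2.41% lower, and its groups overlapped. The call was lost without any single library other than NPC_DCH replicate 5 or NPC_media replicate 1. Of the 8, 6 had an unadjusted p below 0.05 by edgeR, and the share of all genes at that cutoff is not given. Gjb2 was under the count filter here, with 2, 75, 6, 2 and 2 counts in the NPC_DCH libraries. After 4 hours in DCH edgeR called none of 8, beside 0.32% of 13768 genes, 0.0436% higher and 0.276% lower, with 1 at an unadjusted p below 0.05 and none called by DESeq2.

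In grafts at 14 days, 8 of 9 genes were called higher than in NPC_DCH in all 3 settings, and Dtna was not called. In uninjured cord Dtna lay at the threshold (0.40, SE 0.12, adjusted p = 0.01), and it was called higher by DESeq2 (0.51, adjusted p = 0.00012), under both other count filters, with DESeq2 size factors, with all 23 groups in 1 fit, against NPC P15, and without uninjured replicate 3 or 5. The labels do not say which NPC were grafted. The paper prints a pre-graft Kcnj10 level of 12.5 FPKM. Kcnj10 had 12.5 CPM per kilobase in D3 and 31.2 in NPC_DCH. The pre-graft Kcnj16 level that the paper prints was also nearer that of D3 (0.187 CPM per kilobase) than that of NPC_DCH (1.40). Its Gjb6 level lay between those of D3 (0.0618) and NPC_DCH (0.133). The paper also counts 5 pre-graft samples, as NPC_DCH has and D3 (4 libraries) does not. D3 was not tried as the control. Mean Dtna was 55.6 CPM in D3, 109 in NPC_DCH and 70.8 in grafts in crushed cord, so its direction there depends on the control. The 3 comparisons share the NPC_DCH control. In uninjured cord 53.7% of genes were called against it, 28.4% higher and 25.3% lower. In crushed cord it was 51.6%, with 28.4% higher and 23.3% lower, and in double-crushed cord 51.9%, with 28.5% higher and 23.4% lower. In crushed cord Aqp4 had 1176, 1161, 1018, 729 and 829 CPM where the NPC_DCH libraries had 1.53 to 2.74 CPM (9.23, SE 0.22, adjusted p = 1.8e-11). Gjb6 had 68.7, 94.6, 91.8, 95.6 and 46.5 CPM against 0.255 to 0.504 CPM (8.11, SE 0.27). Gjb2 had 439, 428, 445, 305 and 153 CPM against 0.0272 to 1.19 CPM. No graft library overlapped the NPC for these genes.

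The same grafts held Gja1 at 619 to 1300 CPM (3.74, SE 0.17), Hepacam at 358 to 749 (4.06, SE 0.19), Kcnj16 at 28 to 54.5 (3.06, SE 0.25), Kcnj10 at 559 to 963 (2.57, SE 0.15) and Mlc1 at 593 to 1422 (2.16, SE 0.16). Dtna, with 52.2 to 94.2 CPM against 100 to 121 CPM, gave -0.30 (SE 0.14, adjusted p = 0.068), and against NPC P15 in place of NPC_DCH it gave 0.61 (adjusted p = 0.0032). It was called lower against NPC_media (-0.49, adjusted p = 0.0048), with all 23 groups in 1 fit (-0.34, adjusted p = 0.0071) and on library totals (-0.63, adjusted p = 0.0033). The median log2 fold change was 3.74 for the members and 0.15 for all genes. Without TMM the median of all genes moved by -0.32, and the share of calls that were higher went from 54.9% to 42.997%. Of the related genes, 8 of 11 potassium channels and pumps rose and none fell, with Kcnj8 among the higher. In the dystrophin complex 5 of 15 rose and 3 fell, among them Dtnb by 2.06.

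Grafts in crushed cord had higher levels of 4 of the 9 than grafts in uninjured cord. Between grafts in crushed and uninjured cord, Gjb2 (1.64, SE 0.23, adjusted p = 0.00092), Aqp4 (1.28, SE 0.26, adjusted p = 0.0063), Mlc1 (1.20, SE 0.21, adjusted p = 0.003) and Gja1 (1.09, SE 0.20, adjusted p = 0.004) were higher, beside 4.64% of 15813 genes called, 2.09% higher and 2.55% lower. Gjb2 had 132, 142, 118.7, 175.7 and 103 CPM in uninjured cord, and the lowest crush library, replicate 5, lay among them. Kcnj10 had 1019 to 1366 CPM in uninjured and 559 to 963 in crushed cord, which do not overlap, but was not called (-0.29, SE 0.19, adjusted p = 0.36). Gjb6 differed by 0.17 (SE 0.27) and Hepacam by 0.74 (adjusted p = 0.013).

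These calls rest on the scaling and on single libraries. On library totals Gjb2 alone kept its call among the 4 and Dtna was called lower (-1.01, adjusted p = 0.003), and 12.6% in place of 44.96% of all calls were higher. Leaving out single libraries left 1 to 6 calls, 1 without replicate 1, 2 or 3 in crushed or replicate 4 in uninjured cord, and 2 without replicate 2 in uninjured cord. Oligodendrocyte markers summed to 10917 to 25701 CPM in uninjured and 3822 to 9601 in crushed cord, neuronal markers to 1148 to 5624 and 167.3 to 434, and astrocyte markers to 10563 to 17704 and 9079 to 21286. The meningeal and epithelial list (Slc47a1, Ogn, Krt5, Krt14), cells that also make connexin 26, summed to 38.8 to 192.2 CPM in uninjured and 25.1 to 71.7 in crushed cord, with Krt5 and Krt14 below 1 CPM in both. The part of these cell types in the result was not tested.

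Grafts in the double crush were called for none of the 9 by edgeR against either other graft group, beside 4.19% of 15906 genes against uninjured cord (2.55% higher, 1.64% lower) and 1.83% of 15790 against crushed cord (1.29% higher, 0.538% lower). In each of these, 5 members had an unadjusted p below 0.05 and DESeq2 called 3. The shares of all genes on those measures are not given here, so these counts describe the members only. Against uninjured cord 1 was called without uninjured replicate 5 or double crush replicate 5, and against crushed cord 1 without crush replicate 5. Gjb2 had 329, 150, 224, 193.2 and 131 CPM there, overlapping both. Fibroblast and pericyte markers, at 4176 to 19320 CPM, exceeded the 642 to 3012 CPM of the other grafts at 14 days.

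Between 5 and 14 days in crushed cord Aqp4, Gjb2 and Hepacam rose, beside 5.3% of 15314 genes called, 2.72% higher and 2.58% lower. Aqp4 had 222, 262, 237, 334.6 and 404 CPM at 5 days, all below the 14-day libraries (1.91, SE 0.22, adjusted p = 0.00035). Gjb2 had 11.4, 20.0, 10.9, 72.3 and 49.3 CPM (3.55, SE 0.54, adjusted p = 0.0014), and Hepacam 149 to 358 CPM (1.64, SE 0.25). Age of the graft and read type cannot be told apart here, since all 5-day libraries appear to be single-read. Fibroblast and pericyte markers summed to 4076 to 12378 CPM at 5 days and 642 to 2563 at 14 days, and those of oligodendrocyte progenitors to 152.8 to 548 and 647 to 2080. Their part in the result was not tested.

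In host astrocytes injury went with lower levels of 7 of the 9 genes, beside 41.1% of 16886 genes called, 22.2% higher and 18.8% lower. The median log2 fold change was -0.99 for the members and 0.02 for all genes. Kcnj16 fell furthest, from 526 to 617 CPM in HOST to 118.8, 72.2, 157, 217 and 147 CPM (-2.17, SE 0.18, adjusted p = 3.6e-08). Gjb6 went from 635 to 840 CPM to 140, 91.99, 214, 274 and 277 CPM (-2.03, SE 0.23, adjusted p = 8.4e-07). Kcnj10 went from 3871 to 4864 CPM to 1670, 1393, 2252, 2552 and 1520 CPM (-1.39, SE 0.13, adjusted p = 8.9e-08). None of these groups overlapped.

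Gja1 fell by 1.64 (SE 0.24), Dtna by 0.99 (SE 0.11), Hepacam by 0.79 (SE 0.09) and Mlc1 by 0.77 (SE 0.11). The other two did not pass the test. Aqp4 had 2252, 1682, 2938, 4063 and 1339 CPM after injury and 1755 to 3772 CPM without, a difference of -0.35 (SE 0.22, 95% interval -0.78 to 0.09). Gjb2 had 26.95, 31.3, 32.1, 36.3 and 26.8 CPM after injury and 27.4 to 34.8 CPM without (-0.19, SE 0.08, 95% interval -0.35 to -0.02, adjusted p = 0.071). Replicate 4 was the highest injured library for 8 of the 9 genes and replicate 2 the lowest for 6. Against only the 2 HOST libraries without Y-linked RNA, 5 were called, and Mlc1 (-0.83, adjusted p = 0.014) and Hepacam (-0.75, adjusted p = 0.011) were not. The share of all genes called in that setting is not given. Oligodendrocyte markers were higher after injury, as given above, microglia and macrophage markers went from 10.3 to 23.2 CPM to 193.4 to 1495 CPM, and fibroblast and pericyte markers from 137 to 219 CPM to 470 to 990 CPM. Their part in the fall was not tested. On library totals 70.8% in place of 54.2% of all calls were higher.

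Related genes of the injured host moved both ways. Potassium channels and pumps had 7 lower and 3 higher of 11, with Kcnk1 down from 404.8 to 128.2 CPM (-1.85, SE 0.12) and Atp1b2 from 13008 to 5917 CPM (-1.31, SE 0.13). Among connexins and their scaffold 5 of 9 rose, including the oligodendrocyte connexin genes Gjb1 (2.38) and Gjc3 (1.32). Of the MLC1 and GlialCAM partners 3 of 4 fell, Gprc5b (-1.37), Lrrc8a (-0.98) and Gpr37l1 (-0.66), and Utrn fell by 0.82 in the dystrophin complex, where 5 of 15 rose and 3 fell. Aqp1 rose from 0.232 to 7.53 CPM (4.80).

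The injury differences of grafts and hosts were unlike each other for 8 of the 9 genes. The difference between them, tested as an interaction, was higher in grafts for these 8, beside 16.8% of 17536 genes called, 6.11% higher and 10.7% lower. It was 2.71 for Gja1 (SE 0.33, adjusted p = 9.4e-07), 2.17 for Gjb6 (SE 0.36), 1.94 for Mlc1 (SE 0.22), 1.79 for Gjb2 (SE 0.22) and 1.72 for Kcnj16 (SE 0.31). Hepacam (1.49, SE 0.17), Aqp4 (1.60, SE 0.36) and Kcnj10 (1.06, SE 0.21) followed, and Dtna was not called (0.23, adjusted p = 0.4). With only the 2 HOST libraries without Y-linked RNA 5 were called, and the share of all genes called in that setting is not given. On library totals the median of all genes moved by -0.42, 6 were called, all higher, and 10.1% in place of 36.4% of all calls were higher.

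**Figure D3:**
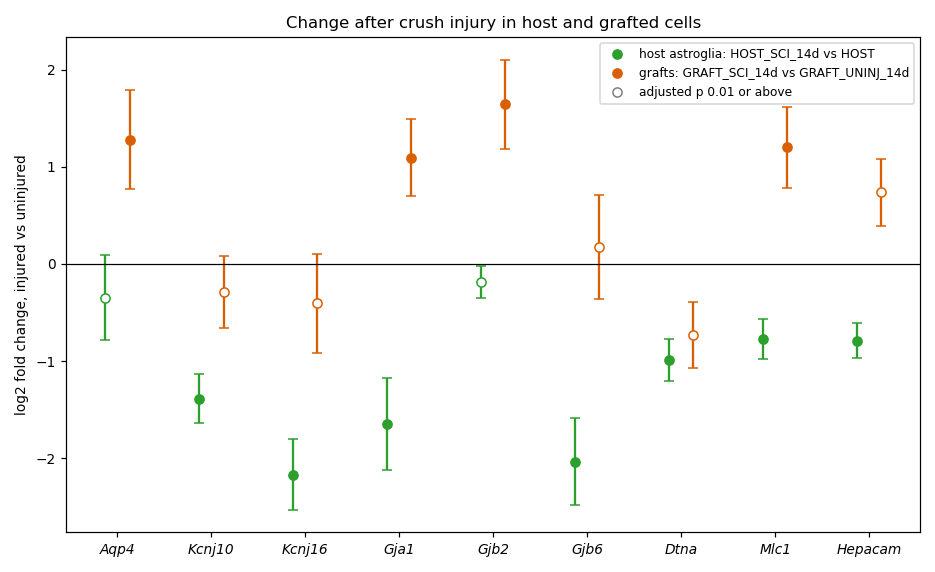
Log2 fold changes with 95% intervals of the 9 genes for crushed against uninjured cord, in host astrocytes and in grafts at 14 days (open symbols: adjusted p of 0.01 or more). Host values lie below 0 for all 9 genes, from -2.17 for Kcnj16 to -0.19 for Gjb2, and graft values run from -0.73 for Dtna to 1.64 for Gjb2.

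Set directly against host astrocytes of crushed cord, grafts in crushed cord had more Gjb2 and less of 5 others, beside 14.6% of 16575 genes called, 6.79% higher and 7.84% lower. Gjb2 was higher in every graft library (3.45, SE 0.23, adjusted p = 2.7e-06). Kcnj16 (-2.01, SE 0.26), Gjb6 (-1.40, SE 0.30), Aqp4 (-1.36, SE 0.26), Kcnj10 (-1.28, SE 0.20) and Dtna (-0.81, SE 0.17) were lower. Gja1 (0.54), Mlc1 (-0.03) and Hepacam (-0.45) were not called. The Gjb6 call was lost without host replicate 3, 4 or 5 or graft replicate 1 or 2, and that of Dtna without host replicate 1, 3 or 4 or graft replicate 2 or 3 (adjusted p = 0.01 to 0.015). Astrocyte markers summed to 24859 to 36237 CPM in these hosts and 9079 to 21286 in these grafts, and their part in the result was not tested. Without injury, grafts against HOST called all 9, with Gjb2 higher (1.57, SE 0.11, adjusted p = 1.6e-09) and 8 lower, beside 49.7% of 16506 genes, 26.5% higher and 23.3% lower. On library totals 79.6% in place of 53.2% of all calls in that comparison were higher, with the median of all genes moved by 0.55.

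Cultures with 1% serum against HOST called all 9 lower, beside 67% of 16614 genes called, 32.3% higher and 34.7% lower. Gjb6 differed most (-7.65, SE 0.17, adjusted p = 7.1e-17), then Kcnj16 (-5.42, SE 0.09) and Aqp4 (-4.58, SE 0.26), while Mlc1 (-1.02) and Dtna (-0.76) came closest. On library totals 62.1% in place of 48.1% of all calls were higher.

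**Figure D4:**
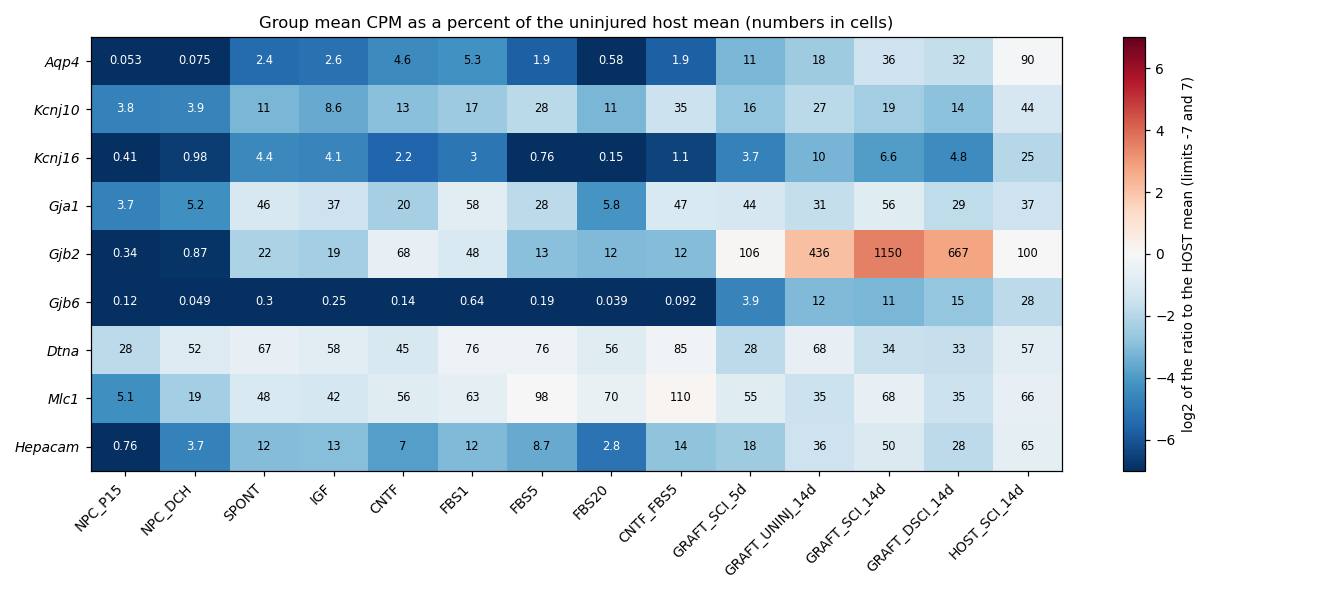
Mean CPM of each gene in each group as a percent of its mean in uninjured host astrocytes. Gjb2 reaches 1150% in grafts in crushed cord at 14 days, while Gjb6 is at 0.642% in 1% serum and 11.0% in those grafts.

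The balance of the 3 connexin genes, per length, differed between the sources. In HOST the median shares were 58.8% Gjb6, 37.7% Gja1 and 2.79% Gjb2, and in SPONT cultures 96.1% Gja1. With CNTF the share of Gjb2 was 20.0%. In grafts in crushed cord at 14 days it was 54.1%, with 36.2% Gja1 and 10.6% Gjb6. At 14 days the median Gjb2 share was also high in the other grafts, with 41.9% in uninjured and 46.1% in double-crushed cord. In crushed cord at 5 days the median Gjb2 share was 7.86%, with libraries from 4.53 to 35.2%. The neighbouring pair Gjb6 and Gjb2, whose upstream windows are printed above, had a ratio of 16.9 to 27.6 in HOST, 2.64 to 9.30 in injured hosts and 0.141 to 1.04 in the grafts at 14 days, so hosts and grafts did not overlap.

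**Figure D5:**
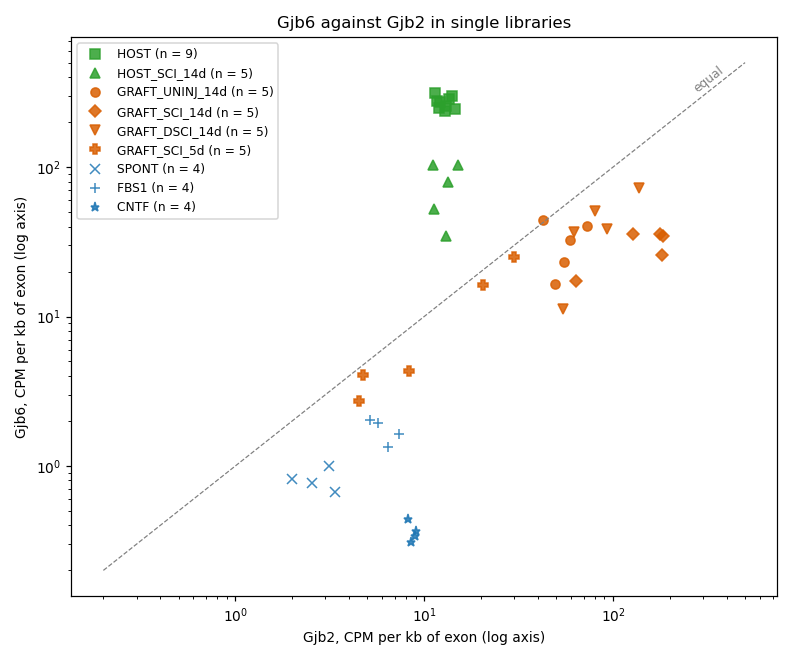
Gjb6 against Gjb2 in CPM per kilobase, both axes log, with a point for each library and a dashed line where both are equal. All host libraries lie on the Gjb6 side, with ratios of 2.64 or more, and all graft libraries from crushed cord at 14 days on the Gjb2 side, with ratios of 0.282 or less.

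Likeness to other genes was measured as Spearman's rho over the 23 group means, among 13050 genes, as a description, since groups share lines and libraries differ in depth. Hepacam and Aqp4 were the most alike pair of members (0.952), and Gjb2 and Dtna the least (0.300). The nearest gene to Aqp4 was Lgi4 (0.970), to Kcnj10 Slc22a4 (0.955), to Kcnj16 Slc6a11 (0.956) and to Gja1 Rimklb (0.905). For Gjb2 it was Plekha6 (0.963), for Gjb6 Fads2b (0.954), for Dtna Mtmr10 (0.881), for Mlc1 A2m (0.962) and for Hepacam Gpr37l1 (0.974).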

How the data were processed

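Ribosome-bound RNA of 107 mouse libraries was sequenced by the authors on poly-A selected RNA. Per the labels, reads were trimmed with Trimmomatic, aligned with HISAT2 to mm10 and counted with featureCounts, and the deposited values are raw counts per Entrez gene. The study's reporting summary gives the versions of these tools, and the strand setting is not given in the sources used here. Low counts in 96 libraries were mostly even, so both mates of a pair appear to have been counted there. Of 27179 genes, 25275 were named from RefSeq. Groups came from the sample titles. CPM were computed on library totals. Each of 24 comparisons was fitted on its own groups, and 2 interactions on 4 groups each, with edgeR 4.0.16 (filterByExpr with a minimum count of 10, TMM, quasi-likelihood test, Benjamini-Hochberg over all genes tested) in R 4.3.3. DESeq2 1.42.0, other filters and scalings, a replicate block, a fit of all 23 groups and leaving out each library were the alternatives. Python 3.11.15 with pandas 2.3.3 made tables and figures. The most alike libraries of a group differed by a chi-square of 2.57 per gene, above sampling noise, so none was a duplicate. Tested on simulated data, 97 of 100 genes changed 2-fold and 100 of 100 changed 4-fold were recovered over 15060 genes of SPONT against NPC P15, with 1 false call. The simulation gave every gene the same dispersion and changed only well-counted genes. It therefore does not measure recovery for genes with few counts or for groups with a wider spread. Member, marker and related gene lists and tests were chosen with earlier results of these data known. All 9 members are named, and related genes are examples from 5 lists of 44 genes. Exact sequences were copied from RefSeq.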

Additional observations from a re-analysis of the deposited data

Results flagged for a closer look

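Of 204 groups of 4 to 10 libraries examined for the 9 genes, 12 held a library far from the others, and chance gives about 1 in 20. In the cultures these were Aqp4 in SPONT replicate 1 (99.3 CPM), Mlc1 in SPONT replicate 2 (624 CPM), Kcnj16 (1.90 CPM) and Gjb6 (0.778 CPM) in FBS10 replicate 2, and Gjb2 in FBS10 replicate 4 (1.66 CPM). Among the progenitors they were Kcnj16 in NPC P5 replicate 4 (1.19 CPM), Gja1 in NPC P5 replicate 3 (154 CPM), Dtna in NPC P5 replicate 2 (46.4 CPM), Gjb6 in NPC P15 replicate 3 (2.34 CPM) and in NPC P30 replicate 2 (0.558 CPM), and Gjb2 in NPC_media replicate 4 (0.758 CPM). In the grafts it was Hepacam in GRAFT_SCI_5d replicate 5 (358 CPM).

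The effect of CNTF differed with and without 5% serum, by the interaction term, for Gja1 (1.90), Kcnj16 (1.48), Hepacam (1.42), Dtna (0.61) and Gjb2 (-1.89). The difference between crushed and uninjured cord was unlike in grafts and hosts for Gja1 (2.71), Gjb6 (2.17), Mlc1 (1.94), Gjb2 (1.79), Kcnj16 (1.72), Aqp4 (1.60), Hepacam (1.49) and Kcnj10 (1.06).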

How the results depend on the processing

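Of 462 counts of called members under alternatives, 419 stayed within 1.5 times the reported count, and of 4116 log2 fold changes of members 3923 kept direction and side of the threshold, 123 lost the call, 69 gained it and 1 reversed. That was Dtna in grafts in crushed cord against NPC P15 in place of NPC_DCH (0.61). With all 23 groups in 1 fit, called members numbered 4 for CNTF against SPONT (7 reported), 2 for FBS1 against SPONT (5), 1 for CNTF_FBS5 against FBS5 (3), 4 for double crush against uninjured and 4 against crushed cord (0 each), and 8 for 14 against 5 days (3). DESeq2 called 5 for CNTF_FBS5 against FBS5 and 3 in each double crush comparison. Shares of all genes called under these alternatives are not given here, so these counts describe the members only. On library totals without TMM, chosen after seeing the data, 3 were called for FBS1 against SPONT, 2 for crushed and 1 for double-crushed against uninjured cord. With CNTF_FBS5 against FBS5 the share of all calls that were higher went from 48.4% to 68.4% on totals, in the CNTF and serum interaction from 44.9% to 61.8%, for double crush against uninjured cord from 60.8% to 27.8% and against crushed cord from 70.6% to 82.6%, and for 14 against 5 days from 51.3% to 32.8%. With only the 2 HOST libraries without Y-linked RNA, also chosen after seeing the data, the host and graft interaction called 5. Leaving out 1 library gave 3 to 4 calls for D3 against P15, 0 to 4 for IGF, 2 to 5 for FBS1 against SPONT, 0 to 1 for NPC_DCH against NPC_media, 1 to 6 for crushed against uninjured cord, and 0 to 1 in each double crush comparison. Same-numbered libraries shared no origin in the labels and their deviations correlated at -0.18 to 0.25 over 24 comparisons, so the replicate numbers were not taken as pairs. With a replicate block 3 members were called for FBS1 against SPONT, 0 for NPC_DCH against NPC_media, and 3 for grafts against hosts in crushed cord (6 reported). The cause of these changes was not tested. Depth limits Gjb2 and Gjb6 in progenitors, where libraries held few counts.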
